A study of Mus musculus with 10 samples.

Results

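The balance of transcripts that help or hinder the muscle regulator MyoD was followed in C2C12, a mouse myoblast line that fuses into multinucleated myotubes after serum is lowered. The genes described are 9 of the 23417 listed in each Huwe1 table, chosen by name: the Id genes Id1, Id2, Id3 and Id4, the E protein genes Tcf3, Tcf4 and Tcf12, and the repressor genes Twist1 and Snai2. Values are FPKM, fragment counts scaled to transcript length and to the number of mapped fragments, from directional mRNA-seq, in 8 columns of 4 tables, for which the labels list 10 libraries. At day 0, in growth medium with fetal bovine serum, wild-type cells were set against cells carrying shRNAs to Huwe1, a ubiquitin ligase. At day 6, in differentiation medium with horse serum, wild-type cells were set against cells carrying the same pair of Huwe1 shRNAs. At day 8, myotubes given a non-targeting RNA were set against myotubes given Huwe1 shRNAs that the labels list with other sequences. These descriptions follow the labels. The header of the day 8 table calls its control wild type, and the study's methods give a single shRNA pair for myoblasts and myotubes, whose sequences are those that the labels list for day 8 only. In the fourth table, also at day 6, cells with USP10 cDNA driven by an EF1a promoter were set against a day 6 control whose header names wild type. USP10 is a deubiquitinase. Myoblast knockdown lines were selected with puromycin after lentiviral infection. The myotubes were infected once differentiated and then also selected with puromycin, and the USP10 cells were a stable line.

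Each knockdown column is the authors' value over 2 libraries, 1 per shRNA, and each other column is listed as a single condition. The labels hold 1 day 6 wild-type library, but the 2 day 6 control columns differ in values and in estimated depth, and the sources used here leave the origin of the second one unstated. No column has a spread of its own, so no test between conditions was possible and no p-value is given. A gene is said to have risen or fallen where its column ratio reached 2-fold and it had at least 1 FPKM in at least 1 of the 2 columns. The only measure of spread was between the pair of day 6 control columns, where the log2 difference of expressed genes had a robust SD of 0.63, or 1.55-fold. After centring on the median gene, 19.9% of genes differed at least 2-fold between those controls, and so did 1 of the 7 expressed members, Snai2.

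E proteins are basic helix-loop-helix factors that pair with MyoD and myogenin to bind the E-box, CANNTG, in muscle promoters. Id proteins have the helix-loop-helix but lack the basic, DNA-contacting region, so they tie up E proteins in pairs that cannot bind DNA. Twist1 is a basic helix-loop-helix repressor of myogenesis, and Snai2 (Slug) is a zinc finger repressor that binds E-boxes. Id genes are well known targets of BMP signalling through Smad proteins and usually decline as myoblasts leave the cell cycle.

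In the files' mm10 coordinates, Id1 lies at chr2:152736251-152737410 on the plus strand, Id2 at chr12:25093799-25096092 on the minus strand and Id3 at chr4:136143822-136145392 on the plus strand. Tcf3, which encodes the E2A proteins E12 and E47, is at chr10:80409165-80433653. Tcf12, which encodes HEB, is at chr9:71844252-72111819. The positions listed for Tcf3 and Tcf4, which encodes E2-2, are those of the E protein genes and not of the Wnt pathway genes that share these names as aliases. Id4 is at chr13:48044231-48264036, Twist1 at chr12:33957671-33959831 and Snai2 at chr16:14705859-14709382. Each interval overlaps the gene of the same name in the annotation. The Id4 interval is far wider than the annotated Id4 gene, at chr13:48261228-48266026, and begins well upstream of it.

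The sequences just upstream of Id2 and Id3 are shown because these Id genes had the largest fall and the largest rise among the Id genes. They are the 250 bases before the RefSeq start on GRCm38.p6, from chr12:25096093-25096342 on the minus strand and chr4:136143572-136143821 on the plus strand, written 5′ to 3′. Capitals mark an E-box, CANNTG, and the GGCGCC element, each searched on both strands (both are read the same on either strand as patterns).
Id2 promoter: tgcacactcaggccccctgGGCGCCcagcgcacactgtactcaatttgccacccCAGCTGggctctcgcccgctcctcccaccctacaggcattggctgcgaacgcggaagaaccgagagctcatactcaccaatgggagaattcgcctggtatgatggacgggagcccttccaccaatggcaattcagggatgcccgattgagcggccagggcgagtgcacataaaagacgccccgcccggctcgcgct
Id3 promoter: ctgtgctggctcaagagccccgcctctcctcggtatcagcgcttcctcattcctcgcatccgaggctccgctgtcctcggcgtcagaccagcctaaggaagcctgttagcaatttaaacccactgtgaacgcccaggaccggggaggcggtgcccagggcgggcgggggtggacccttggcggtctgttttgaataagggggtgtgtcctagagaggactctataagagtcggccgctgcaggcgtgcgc
The Id2 stretch held 1 E-box, CAGCTG, starting 196 bases before the start, and 1 GGCGCC starting 231 bases before it, and the matches did not overlap. The Id3 stretch held neither. Among all RefSeq promoters of this length, 66.2% held a CANNTG, 13.0% a CAGCTG and 9.59% a GGCGCC.

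Of the 9 genes, 7 had at least 1 FPKM in each table. Across the 8 columns Tcf12 was the steadiest, at 36.0 to 64.7 FPKM, a span of 1.80-fold. Tcf3 spanned 2.56-fold, from 9.20 to 23.6 FPKM, and Tcf4 spanned 3.87-fold, from 8.79 to 34.0 FPKM. The Id genes moved further: Id1 from 5.40 to 52.5 FPKM (9.73-fold), Id2 from 1.65 to 22.0 FPKM (13.4-fold) and Id3 from 11.2 to 127 FPKM (11.4-fold). Snai2 ran from 15.5 to 111 FPKM, or 7.16-fold. Over the 4 control columns alone the spans were 1.88-fold for Id1, 1.65-fold for Id2, 1.90-fold for Id3, 2.56-fold for Tcf3, 2.69-fold for Tcf4, 1.41-fold for Tcf12 and 4.31-fold for Snai2, so the wide Id ranges came from treated columns. The 4 tables were scaled apart, and levels set side by side across them are a description.

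**Figure D1:**
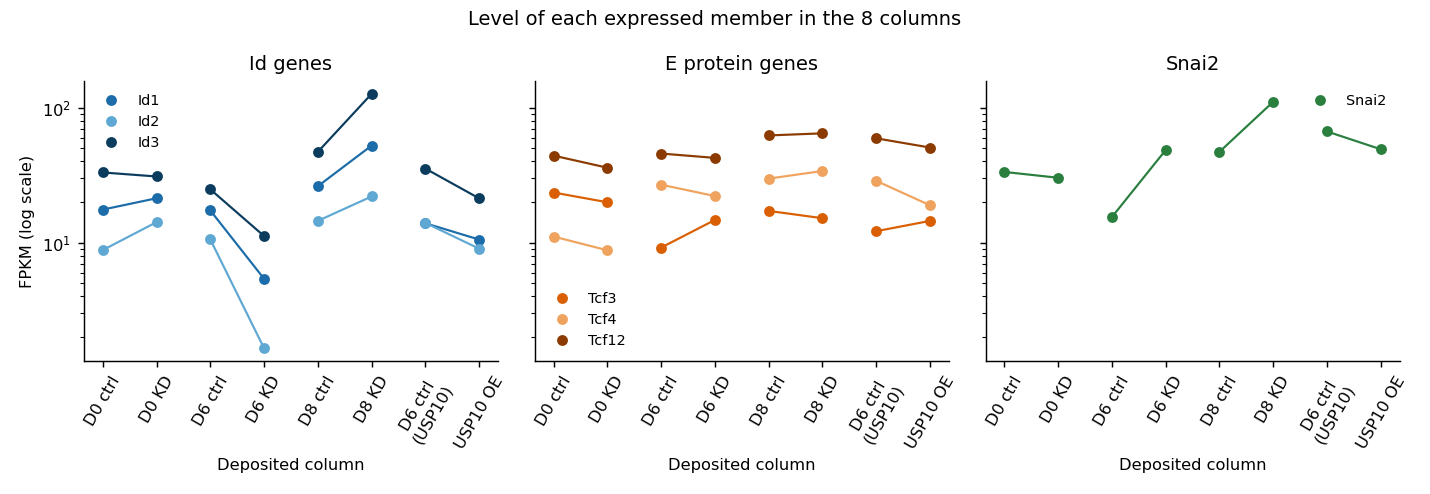
FPKM (log axis) of the 7 expressed genes in the 8 columns (ctrl is control, KD is Huwe1 knockdown, OE is USP10 overexpression). Tcf12 stays between 36.0 and 64.7 FPKM, while the Id genes dip in the day 6 knockdown column and peak in the day 8 knockdown column.

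Id4 and Twist1 were barely present. Id4 was listed at 0 in 3 of the 8 columns and reached at most 0.139 FPKM, in the day 8 control, where it rested on about 9.9 fragments. Twist1 was listed at 0 in 6 columns, all those of the Huwe1 tables, and at 0.164 and 0.0231 FPKM in the control and overexpression columns of the USP10 table. Ratios of either gene are not read as changes. Depth, estimated from the smallest steps of the FPKM values, was 2.22e+07, 3.01e+07 and 1.85e+07 fragments in the day 0, day 6 and day 8 controls, 7.8e+06 in the USP10-table control and 2.79e+07 in the overexpression column. Huwe1 was listed at 38.3 against 15.2 FPKM at day 0, 35.1 against 21.9 at day 6 and 55.4 against 33.0 at day 8 (control first), and Usp10 at 10.3 against 38.3 in the overexpression table. Usp10 was also listed at 13.2 against 35.4 FPKM in the day 6 knockdown.

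At day 0 none of the 7 expressed genes changed 2-fold after Huwe1 knockdown, where 1.69% of 10874 expressed genes fell and 1.90% rose. Id1 was 17.6 FPKM in wild-type cells and 21.4 after knockdown, Id2 8.81 and 14.2, and Id3 33.2 and 31.0. The log2 ratios were 0.28, 0.69 and -0.10, of which only that of Id2 was larger than the 0.63 SD between the day 6 controls. Id2 stood at percentile 96.4 of all day 0 ratios. The SD comes from day 6 columns and sets no limit between change and noise at day 0. Tcf3 was 23.6 and 19.9 FPKM, Tcf4 11.1 and 8.79, Tcf12 44.2 and 36.0, and all 3 E protein transcripts were lower in the knockdown by less than that SD. Snai2 was 33.5 and 30.3 FPKM. Myod1, whose protein pairs with the E proteins, fell from 21.7 to 9.30 FPKM, and Myf5 was 12.5 and 8.79. Of 11 expressed E-box muscle targets 1 fell and none rose, with a median log2 ratio of -0.56 against about 0 over all genes. Summed FPKM of 8 muscle markers was 438 and 229, and of 6 fibroblast and mesenchymal markers 181 and 166. The sums were 431 and 606 for smooth muscle markers, 61.8 and 45.2 for neural ones, 13.6 and 11.2 for endothelial ones, 10.9 and 15.9 for adipocyte ones and 0.789 and 1.36 for blood ones, and no housekeeping gene of 15 changed 2-fold.

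After 6 days in differentiation medium the 3 expressed Id genes fell together in Huwe1 knockdown cells, at a time when 13.4% of 11695 expressed genes fell and 17.6% rose. Id2 was 10.6 FPKM in wild-type cells and 1.65 after knockdown, a fall of 6.38-fold that put it at percentile 3.97 of all expressed genes' ratios. Id1 was 17.3 and 5.40 FPKM, 3.21-fold lower. Id3 was 24.9 and 11.2 FPKM, with a log2 ratio of -1.15. All 3 falls were larger than the 1.55-fold spread between controls, and against the other day 6 control, centred on the median gene, the log2 ratios were -1.42 for Id1, -3.14 for Id2 and -1.72 for Id3. The E protein genes did not change 2-fold: Tcf3 was 9.20 and 14.7 FPKM (log2 ratio 0.68), Tcf4 26.9 and 22.2, and Tcf12 45.8 and 42.5. Snai2 rose from 15.5 to 48.7 FPKM, or 3.14-fold, but the 2 day 6 controls differed 4.31-fold in Snai2, and against the control of the USP10 table, at 66.8 FPKM, the log2 ratio of the same knockdown column, centred on the median gene, was -0.51. The direction of Snai2 at day 6 therefore depended on which control was used.

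The partners moved in both directions in the same columns. Myog, which drives terminal differentiation, fell from 619 to 27.1 FPKM and Myod1 from 154.8 to 62.7. Myf6, a late factor, fell from 2.51 to 0.433 FPKM, while Myf5, an early one, rose from 3.51 to 18.5. Of the 15 E-box muscle targets 11 fell and none rose, with a median log2 ratio of -2.42 against about 0 over all genes. Against the other day 6 control, centred on the median gene, 8 fell and 1 rose with a median of -1.04. Over all expressed genes 1243 of 11696 fell and 1415 rose there. Myod1 did not reach 2-fold against that control, at -0.47. Tnni1, a troponin, was among the largest falls at 1558 to 125 FPKM, with Mef2c, a partner factor of MyoD, at 97.7 to 10.3.

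Markers of other cell types also differed between the day 6 columns. The summed FPKM of 6 fibroblast and mesenchymal markers was 17.7 without knockdown and 3828 with it, with 5 of the 5 expressed ones higher and 1 of the 6 at 0 in each column. Dcn, a matrix proteoglycan, rose from 7.94 to 2987 FPKM and Ly6a from 2.54 to 584. Against the other day 6 control, centred on the median gene, 3 of the 5 were higher, beside 1415 of all 11696 expressed genes. Of 3 endothelial markers, Cdh5 was 0.0241 and 6.83 FPKM, Pecam1 0.0200 and 0.0146, and Kdr was listed at 0 in both. Of 3 neural markers, Tubb3 was 0.301 and 17.1 FPKM, Neurod1 was listed at 0 in both and Sox10 was under 0.1 FPKM. Cdh5 and Tubb3 were also present in day 0 control myoblasts, at 13.5 and 61.8 FPKM. Summed FPKM of 3 smooth muscle markers was 907 and 551, of 3 blood markers 1.476 and 1.356, and of 4 adipocyte markers 6.59 and 11.01. The 8 muscle markers summed to 12193 and 2812. Among 15 housekeeping genes 2 rose, B2m from 136.5 to 1242 FPKM and Actb from 226 to 860. The part of these shifts in the Id and Snai2 values was not tested, and in bulk RNA fewer cells of a type cannot be told apart from less RNA per cell.

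**Figure D2:**
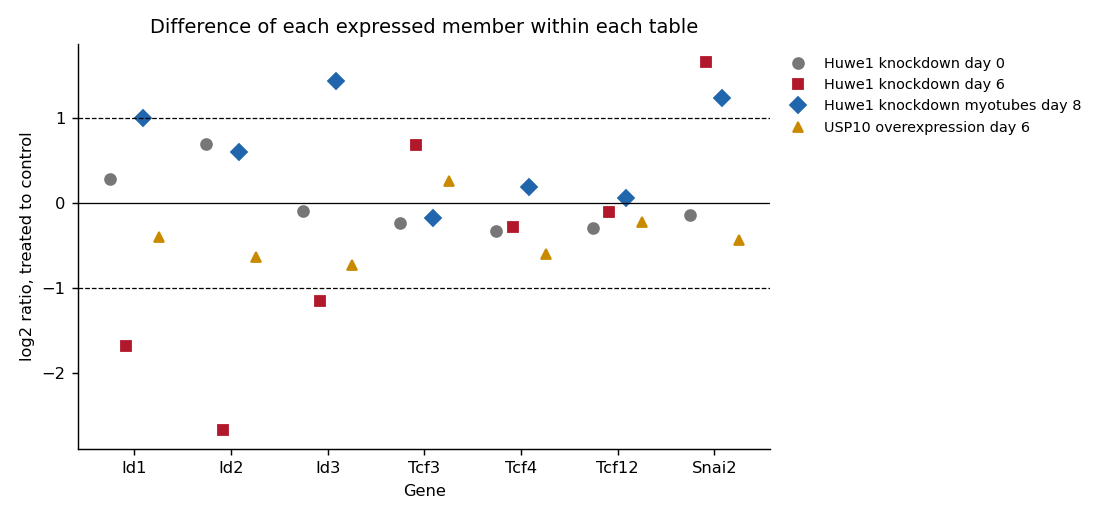
Log2 ratio of treated to control FPKM for the 7 expressed genes in the 4 comparisons, with 0.01 FPKM added to each value. Id1, Id2 and Id3 lie at -1.68, -2.67 and -1.15 at day 6 and at 1.00, 0.60 and 1.43 at day 8, while the 3 E protein genes stay within 0.68 of 0.

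In day 8 myotubes the Id genes were higher after Huwe1 knockdown, against a background in which 10.0% of 11755 expressed genes fell and 7.89% rose. Id3 was 47.2 FPKM with the non-targeting RNA and 127 with the Huwe1 shRNAs, a rise of 2.70-fold at percentile 95.8 of all ratios. Id1 was 26.2 and 52.5 FPKM, which put it at the limit at 2.00-fold, and it no longer reached 2-fold with 0.1 or 1 FPKM added in place of 0.01 or with ratios centred on the median gene, which left 2 members that rose, Id3 and Snai2. Id2 was 14.5 and 22.0 FPKM, a log2 ratio of 0.60 and under the spread between the day 6 controls, which was not measured at day 8. Snai2 rose from 47.2 to 111 FPKM, or 2.35-fold, which is less than the 4.31-fold by which it differed between the 2 day 6 controls. No E protein gene changed 2-fold, with Tcf3 at 17.2 and 15.2 FPKM, Tcf4 at 29.9 and 34.0, and Tcf12 at 62.4 and 64.7.

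In these myotubes Myog fell from 392 to 148 FPKM and Myf6 from 1.41 to 0.135, while Myod1 was 127 and 107 and Myf5 7.36 and 8.14. Of the 15 E-box targets 11 again fell and none rose, with a median log2 ratio of -1.69. The 8 muscle markers summed to 9628 and 2800 FPKM. Fibroblast and mesenchymal markers summed to 96.3 FPKM without knockdown and 91.6 with it, with Dcn at 4.19 and 8.75 FPKM, so the large day 6 shift in Dcn was not present at day 8. Pdgfra rose from 1.95 to 7.74 FPKM and Ly6a fell from 13.9 to 4.28. Neural markers summed to 4.17 and 0.269 FPKM, endothelial ones to 0.0327 and 0.0277, blood ones to 0.956 and 2.34, smooth muscle ones to 1149 and 1010, and adipocyte ones to 3.89 and 3.28. No housekeeping gene of 15 changed 2-fold.

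Ratios below 1 at day 6 and above 1 at day 8 were found for all 3 Id genes, of which Id2 did not reach 2-fold at day 8. Across all 12280 genes expressed in either table, 2.83% were at least 1.5-fold lower at day 6 and at least 1.5-fold higher at day 8, and Id1, Id2 and Id3 were all among them. Id2 passed this lower limit narrowly, at 1.52-fold at day 8, under the 1.55-fold spread between controls. With 1 FPKM added its log2 ratio was 0.57, below 1.5-fold. The share of all genes at 2-fold was not computed. The 2 time points differed in the time of infection and, by the labels, in the shRNA sequences and the kind of control, and these cannot be told apart from time.

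With USP10 overexpressed at day 6, none of the 7 expressed genes changed 2-fold, where 10.0% of 11482 expressed genes fell and 9.70% rose. All 3 Id genes were lower: Id1 was 13.9 FPKM in the control and 10.5 with USP10, Id2 14.0 and 9.02, and Id3 35.4 and 21.3. The log2 ratios were -0.40, -0.63 and -0.73. They were -0.71, -0.22 and -0.21 when centred and set against the other day 6 control. Tcf3 was 12.2 and 14.5 FPKM, Tcf4 28.7 and 18.9 (-0.60), Tcf12 59.4 and 50.8, and Snai2 66.8 and 49.3. Against the other day 6 control, centred on the median gene, the log2 ratio of Snai2 with USP10 was 1.68, past 2-fold and of the opposite sign. The Id ratios of this table have the same sign as those of the day 6 knockdown and are smaller, and the difference was not tested. The control had few reads, with about 126 fragments behind its Id1 value and 216 behind its Id2 value.

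Here Myog fell from 305 to 28.8 FPKM and Myf6 from 4.93 to 0.283, Myf5 rose from 4.79 to 20.2, and Myod1 was 83.5 and 50.4. Of the 15 E-box targets 9 fell and none rose, with a median log2 ratio of -1.46. The 8 muscle markers summed to 5399 and 3246 FPKM. Mesenchymal markers summed to 170 FPKM in the control and 3656 with USP10, with Dcn at 50.3 and 3037 FPKM, and the smooth muscle sum was 994 and 612. The sums were 0.624 and 6.87 FPKM for endothelial markers, 0.965 and 6.50 for neural ones, 4.65 and 2.09 for blood ones, and 9.94 and 16.0 for adipocyte ones. Among housekeeping genes 2 of 15 rose, Tbp from 27.8 to 89.6 FPKM and B2m from 402 to 1195. The part of these shifts in the member values was not tested.

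The 2 day 6 treated columns could be set beside each other. After centring on the median gene 9.59% of 11351 expressed genes differed at least 2-fold between USP10 overexpression and Huwe1 knockdown, and so did 2 of the 7 members, Id2 and Id1. Id2 was 5.45-fold and Id1 1.95-fold lower in the knockdown column as deposited, and Id3 was 1.90-fold lower. Snai2 and Tcf3 were near equal in both, at 48.7 and 49.3 FPKM and at 14.7 and 14.5 FPKM.

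**Figure D3:**
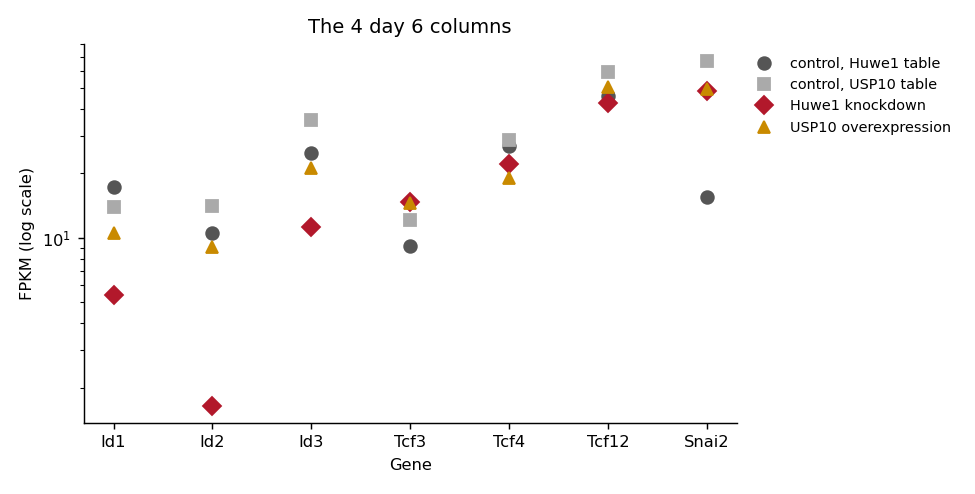
FPKM (log axis) of the 7 expressed genes in the 4 day 6 columns, for the controls of the Huwe1 and USP10 tables and the 2 treated columns. Snai2 separates the controls, at 15.5 and 66.8 FPKM, but not the treated columns, and Id2 separates the treated columns.

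The balance itself was taken as the summed FPKM of Id1 to Id4 over that of the 3 E proteins, a ratio that does not depend on how a column was scaled. In the 4 control columns it was 0.756 at day 0, 0.645 and 0.632 at day 6 and 0.804 at day 8. Knockdown gave 1.03 at day 0, 0.230 at day 6 and 1.77 at day 8, and USP10 overexpression gave 0.485. The largest drop was 2.81-fold and the largest rise 2.20-fold, both in knockdown columns. Taken as a difference of mean log2 values, the day 8 change was 0.30 on the log2 scale in place of 1.14, and 0.99 when Id4, which is near 0 FPKM but weighs as much as the others there, was left out. The sum of E proteins moved by less than 0.3 on the log2 scale in every comparison, from 78.9 to 64.7 FPKM at day 0, 81.9 to 79.4 at day 6, 109.5 to 113.9 at day 8 and 100.3 to 84.2 with USP10, and at days 6 and 8 the Id sum moved more than the E sum. At day 0 the Id sum was 59.6 and 66.6 FPKM.

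**Figure D4:**
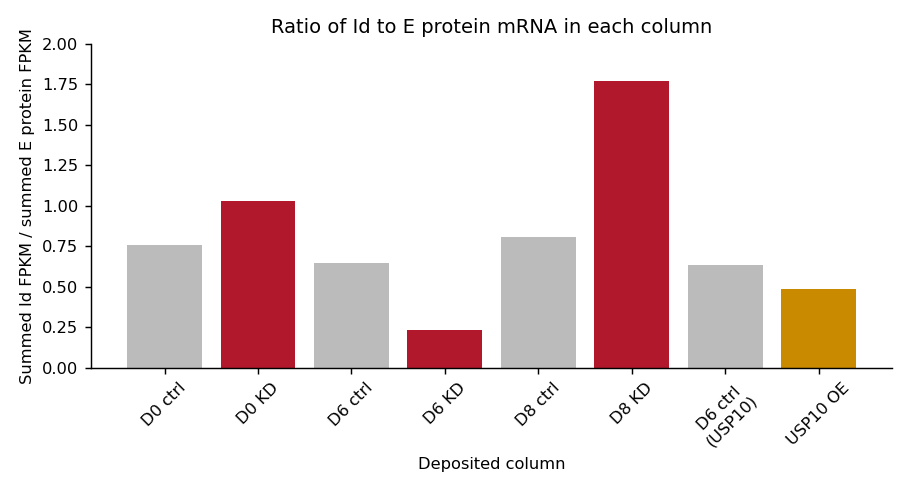
Ratio of the summed FPKM of the Id genes to that of the E protein genes in each of the 8 columns. The 4 controls lie between 0.632 and 0.804, the day 6 knockdown lies at 0.230 and the day 8 knockdown at 1.77.

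Set against the 4 myogenic factors instead, the Id sum was higher in every treated column than in its control. The Id to myogenic ratio went from 1.72 to 3.62 at day 0, 0.0678 to 0.168 at day 6, 0.167 to 0.767 at day 8 and 0.159 to 0.410 with USP10. At day 6 this rise came while the Id sum itself was lower, at 52.8 against 18.2 FPKM, and the myogenic sum was 779 against 108.7 FPKM. The Id to myogenic ratio also differed between the 2 day 6 controls, at 0.0678 and 0.159. The knockdown value of 0.168 was close to the second, so the size of the day 6 rise depended on the control. The E protein to myogenic ratio was higher in every treated column too, from 2.28 to 3.52 at day 0, 0.105 to 0.731 at day 6, 0.207 to 0.433 at day 8 and 0.252 to 0.845 with USP10.

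The mix within the E proteins differed between day 0 and the later columns. Tcf12 made up 53.5% to 60.3% of the E protein FPKM in all 8 columns. Tcf3 was 29.9% and 30.8% at day 0 and between 11.2% and 18.6% in the other columns, while Tcf4 was 14.1% and 13.6% at day 0 and between 22.5% and 32.9% in the others. Within the Id genes Id3 was the most abundant in every column, at 46.5% to 63.0%.

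**Figure D5:**
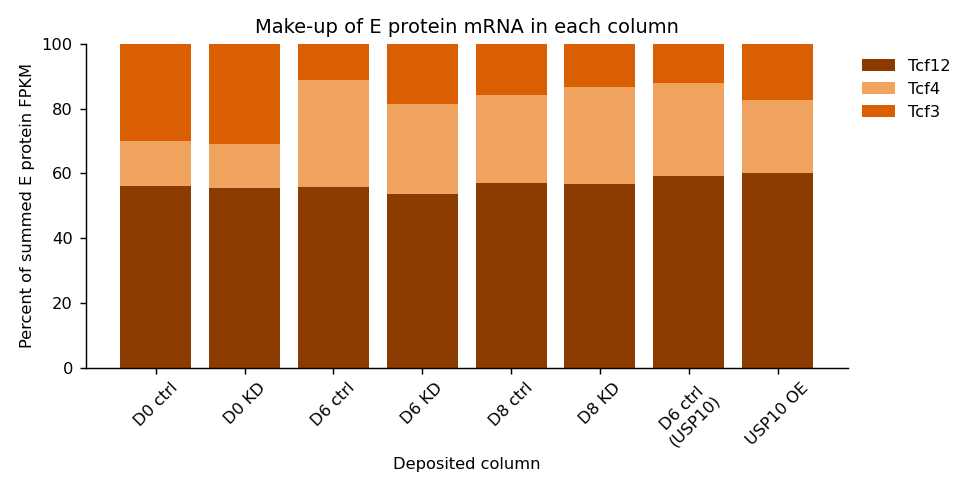
Share in percent of the summed E protein FPKM for Tcf3, Tcf4 and Tcf12 in each of the 8 columns. Tcf12 keeps 53.5% to 60.3%, and Tcf3 and Tcf4 change order between the day 0 columns and the later columns, treated ones included.

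Other helix-loop-helix proteins and antagonists of MyoD moved in both directions. Of 20 listed, 12 were expressed at day 0, with none changed, and 14 at day 6, with 4 lower and 4 higher. At day 8, 14 were expressed with 4 lower and none higher, and with USP10 13 were expressed with 3 lower and 2 higher. Their median log2 ratios were -0.15, -0.54, -0.43 and -0.54 in that order, beside about 0 over all genes. The shares over all expressed genes were 1.69% lower and 1.90% higher at day 0, 13.4% and 17.6% at day 6, 10.0% and 7.89% at day 8, and 10.0% and 9.70% with USP10. With the other day 6 control 2 of 13 were lower and 3 higher in the knockdown, and 5 of 14 lower and 4 higher with USP10. Over all expressed genes 1243 of 11696 were lower and 1415 higher in the knockdown against that control. With USP10 they were 1777 lower and 2044 higher of 11597. Hes6, a Hes family member that favours differentiation, fell in 3 comparisons, from 41.3 to 17.4 FPKM at day 6, 73.8 to 31.2 at day 8 and 23.0 to 6.22 with USP10, but against the other control its centred log2 ratio in the day 6 knockdown was -0.47, under 2-fold. Msc (MyoR), a repressor of MyoD targets, rose from 0.0603 to 5.28 FPKM at day 6 and from 0.155 to 5.43 with USP10. In day 8 myotubes Msc went the other way, from 2.58 to 0.618 FPKM, and at day 0 it was 3.57 and 3.22. Zeb2, another E-box repressor, rose at day 6 from 12.9 to 42.9 FPKM.

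Genes of BMP and Smad signalling, upstream of Id genes, numbered 23. At day 6 there were 14 expressed, of which 4 fell and 2 rose, and at day 8 16, of which none fell and 6 rose. With USP10, 17 were expressed, 8 fell and none rose, and at day 0 1 of 9 rose. The median log2 ratio was -0.01 at day 0, -0.02 at day 6, 0.41 at day 8 and -0.37 with USP10, beside about 0 over all genes, and the shares of all genes called are those given for the antagonists. Against the other day 6 control, centred on the median gene, 7 of 17 fell and none rose in the knockdown, and 3 of 13 fell and 3 rose with USP10, so the day 6 counts of this list depended on the control. The counts over all expressed genes against that control are also those given for the antagonists. Bmp4, a BMP ligand, rose from 8.15 to 29.8 FPKM at day 8. At day 6 it was 4.56 FPKM in the control of the same table, 22.4 in the knockdown and 45.1 in the control of the USP10 table, so its direction turned with the control. Grem1, a secreted BMP antagonist, rose from 24.2 to 87.3 FPKM at day 0. At day 6 it was 7.81 FPKM in the control of the same table, 99.1 in the knockdown and 84.9 in the other control, against which its centred log2 ratio was 0.17. Bmp6 fell from 13.3 to 0.189 FPKM at day 6, and its centred log2 ratio against the other control, at 2.76 FPKM, was -3.86. At day 8 Bmp6 rose from 19.6 to 40.0 FPKM. Smad1, a BMP signal transducer, fell from 25.9 to 7.21 FPKM in the day 6 knockdown and from 22.3 to 6.63 with USP10. Against the other day 6 control the centred log2 ratio of Smad1 was -1.69 in the knockdown and -1.95 with USP10.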

How the data were processed

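Directional mRNA-seq of C2C12 was analysed from 4 tables of FPKM values that the authors deposited from Cuffdiff, and the submitters' processing notes name Bowtie2, Cuffdiff and mm10 without versions. Only the FPKM columns were used; the authors' fold changes and p-values in the same tables were left out. The 2 knockdown libraries of a time point were pooled by the authors in 1 FPKM column.

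Log2 ratios of treated to control were computed within a table with 0.01 FPKM added. Genes had to reach 1 FPKM in at least 1 column, and 2-fold was the limit. With 1 value per condition no test was run. Depth was estimated from the smallest steps of FPKM and is not known for pooled columns. Estimates and floors (3 fragments) cover counting error only. The ratio and depth steps were tested on simulated data. Python 3.11.15, pandas 2.3.3, numpy 2.4.6 and matplotlib 3.10.9 were used. Promoters came from RefSeq (GRCm38.p6), with 6 of 9 genes matched.

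All 9 genes, the 4 myogenic factors, Huwe1 and Usp10 were named, as were the 2 largest increases and 2 largest decreases of each list at 5 FPKM and 2-fold, of which a selection is printed, and the 3 genes of most similar pattern (those for Id1 are not reported here). The genes and lists were chosen with earlier results of these data known. The USP10 table's control is taken as the day 6 control its header names, though its values differ from those of the other day 6 control. Pseudocounts, filters, centring and fold limits were varied.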

Additional observations from a re-analysis of the deposited data

Results flagged for a closer look

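For 3 genes the ratios of knockdown to control lay on opposite sides of 0 at day 6 and in day 8 myotubes. The log2 ratio at day 8 minus that at day 6 was 2.68 for Id1, 3.27 for Id2 and 2.58 for Id3. The difference was not tested, because each ratio rests on 1 value per condition.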

How the results depend on the processing

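No paired analysis was possible because each knockdown column pools its 2 libraries and the control columns carry no replicate number. For the same reason no library could be left out. Among alternatives for the log2 ratios of single genes, 114 values moved by less than the spread between controls. Another 9 moved further, all for Id4 or Twist1, and 3 turned sign with at least 2-fold before or after. Smaller turns of sign count among the 114, such as that of Tcf12 with USP10, from -0.23 to 0.16 against the other day 6 control. Against the other day 6 control, centred on the median gene and added after seeing the data, the log2 ratio of Snai2 became -0.51 at day 6 and 1.68 with USP10. That of Twist1 with USP10 became 1.73, but Twist1 rests on about 1.05 fragments there. All 3 turned sign. Against that control the genes higher at day 6 numbered 0, and with USP10 1 was higher, beside 1415 of 11696 and 2044 of 11597 expressed genes. At a 1.5-fold limit 1 gene was higher at day 0, 2 were higher at day 6, 4 were higher at day 8 and 3 were lower with USP10. The shares of all genes past 1.5-fold in each comparison were not computed, so these counts are not read as results. With no filter 1 gene was lower at day 8 and 1 with USP10. The Id to E change at day 8 was 0.30 by mean log2 values, and 0.99 without Id4. With 0.1 or 1 FPKM added, or centred ratios, 2 genes in place of 3 were higher at day 8. The lack of replicate values limits every comparison, low depth limits the USP10 control, and separate scaling limits levels set across tables.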

Other observations

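Over the 8 columns, Pearson correlations of log2 FPKM were 0.95 for Id1 with Id3, 0.87 for Id1 with Id2, 0.83 for Id2 with Id3, 0.82 for Tcf4 with Tcf12 and -0.67 for Tcf3 with Tcf4. These are descriptions over 8 columns that share tables and controls. Among 9417 genes with at least 1 FPKM in all 8 columns, the patterns most like Id3 were those of Ece2 (0.98), Nup214 (0.97) and 5830417I10Rik (0.97). For Id2 they were Cherp (0.96), Utp14a (0.94) and Xpnpep3 (0.92), and for Snai2 Faf2 (0.98), Tnfsf12 (0.97) and Lrig3 (0.96). Tcf3 was nearest to Gdf11, Ptgr1 and Tmem164 (each 0.98), Tcf4 to Mtus1, Nisch and Pdcd4 (each 0.99), and Tcf12 to Plekhg5 (0.98), B4galt1 (0.97) and Cln6 (0.96).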
